A study of Mus musculus with 14 samples.

Results

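The 10 genes described here were the simple keratin genes Krt7, Krt8, Krt18 and Krt19 and the transcription factor genes Snai1, Snai2, Twist1, Twist2, Zeb1 and Zeb2. They were taken by symbol, and all 10 were found among 52636 genes of the expression table. The 14 bulk RNA libraries came from tMEF, transformed fibroblasts of mouse embryos, in which naked mole rat (NMR) TRF1, a protein that binds telomere repeats, took the place of mouse TRF1. The 7 groups had 2 libraries each, named A and B. The GLAD mutant of NMR TRF1 (Glu69Lys, Val70Ala and Ala75Thr) was grown in hypoxia, at 1% oxygen, and in normoxia, at atmospheric oxygen. The TIN mutant (Ala105Thr) and the double mutant, with the GLAD and TIN changes together, were likewise grown in hypoxia and in normoxia. Wild-type (WT) NMR TRF1 was grown in normoxia, and WT cells in hypoxia were not analysed here. All groups grew in a medium with 10% fetal calf serum. By its title, the series concerns NMR TRF1 in relation to glycolytic capacity and to telomere replication when oxygen is low.

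Keratins of simple epithelia form filaments from paired type I and type II chains, with Krt18 and Krt19 as type I and Krt7 and Krt8 as type II. Fibroblasts normally keep these genes low and build their filaments from vimentin. SNAIL, TWIST and ZEB proteins repress epithelial genes through E-box sites during epithelial-mesenchymal transition (EMT), and fibroblasts normally express them.

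The libraries held an inferred 11916987 to 15023557 reads each. Levels are in CPM, reads scaled to a common library total, and a count of 0 allows a level of up to 0.200 to 0.252 CPM, the worth of 3 reads, for counting error only. The labels do not say whether libraries A and B came from separate cultures, so p-values reflect only library-to-library spread, possibly technical. A mutant may also be 1 cell line, and line and substitution then cannot be told apart. Names of the WT libraries hold the word mouse while their titles give NMR TRF1, and comparisons with WT rest on the titles. The WT libraries were also the least alike, with a replicate SD of 0.24 (log2) against 0.146 to 0.189 in the other groups. Terf1, which encodes TRF1, had 85.2 to 186 CPM, and these values cannot tell mouse from NMR transcripts. The 6 genes listed as a check of the oxygen response all rose in hypoxia in each mutant, with a median log2 change of 3.08 in GLAD, 2.75 in TIN and 2.22 in the double mutant. In normoxia the double mutant already had all 6 called higher than WT (median 1.15) and than TIN (1.08), and 5 of 6 higher than GLAD (1.07). In the same order, 56.9%, 48.7% and 35.7% of all tested genes were called in either direction. The hypoxia rise of the double mutant was smaller than that of GLAD for all 6 (median -0.91) and than that of TIN for 4. The part of this higher normoxia level in the double-mutant results below was not tested.

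The labelled cell type was checked against marker lists. Of 12 fibroblast markers, 9 or 10 had at least 1 CPM in both libraries of each group, and their summed level was 7470 to 15500 CPM. Vim, which encodes vimentin, had 1733 to 2609 CPM, while Thy1 was at 0 to 0.2 CPM. The 12 epithelial markers summed to 7.7 to 17.6 CPM. The defining markers Cdh1 (E-cadherin) and Epcam (an epithelial adhesion molecule) had at most 0.5 CPM in any library.

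Promoter sequence is shown for 4 genes. Among the genes with a matched window, Krt18 was the keratin with hypoxia motifs and Snai1 the factor with the most motifs. The TWIST paralogs are shown because their ratio varied widely between groups. RefSeq windows (GRCm38.p6) were matched for 7 of the 10 genes. Krt19, Snai2 and Zeb1 had no matched window, and motifs were not searched for them. Each run below reads 5′ to 3′ on the gene's strand and ends at the annotated start, except that Krt18 ends where an exon of another transcript begins. Capitals mark GCGTG or ACGTG, cores of the hypoxia response element, and CACCTG, the E-box that SNAIL and ZEB proteins bind, or their reverse complements.
Krt18: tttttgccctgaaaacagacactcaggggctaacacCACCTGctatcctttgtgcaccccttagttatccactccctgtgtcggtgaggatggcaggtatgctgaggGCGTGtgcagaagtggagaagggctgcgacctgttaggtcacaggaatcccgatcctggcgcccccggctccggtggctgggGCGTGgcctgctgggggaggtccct
Snai1: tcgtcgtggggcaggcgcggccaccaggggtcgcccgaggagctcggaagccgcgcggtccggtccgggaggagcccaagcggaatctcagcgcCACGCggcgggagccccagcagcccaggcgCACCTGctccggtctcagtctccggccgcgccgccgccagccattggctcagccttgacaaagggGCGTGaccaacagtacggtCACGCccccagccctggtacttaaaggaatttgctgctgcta
Twist1: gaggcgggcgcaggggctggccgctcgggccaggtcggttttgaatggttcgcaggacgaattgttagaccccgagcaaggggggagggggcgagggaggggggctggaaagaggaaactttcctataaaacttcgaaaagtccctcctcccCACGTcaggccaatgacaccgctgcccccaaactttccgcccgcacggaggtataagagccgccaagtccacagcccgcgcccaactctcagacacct
Twist2: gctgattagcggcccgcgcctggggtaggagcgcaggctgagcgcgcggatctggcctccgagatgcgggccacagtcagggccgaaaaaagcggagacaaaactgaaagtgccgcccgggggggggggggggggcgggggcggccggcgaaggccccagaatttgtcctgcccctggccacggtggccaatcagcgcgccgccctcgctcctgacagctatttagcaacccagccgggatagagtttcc
The Krt18 run is chr15:102027966-102028179, plus strand, and holds 2 GCGTG cores and 1 CACCTG. Snai1 is shown at chr2:167537945-167538194, plus strand, with 3 GCGTG cores and 1 CACCTG. Twist1, at chr12:33957421-33957670, plus strand, holds 1 ACGTG, and Twist2, at chr1:91801211-91801460, plus strand, holds neither motif. In the full 250 bases before the start, Krt7 and Krt8 each held 1 CACCTG and no hypoxia core. Of these bases, 162 in Krt7 and 140 in Krt8 lie in an exon of the same gene. The Krt8 CACCTG is among them. Of 4 windows for Zeb2, which are not printed, 2 overlapped and held the same GCGTG, and none held CACCTG. Of these 2 windows, 98 and 119 bases lie in an exon of Zeb2. Within a window, no match overlapped another. Among 32851 promoter windows of the same 250 bases, searched on both strands, 38.6% held ACGTG or GCGTG and 17.2% held CACCTG. A match is a description of letters in the window, not a binding site.

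Levels below are CPM scaled between libraries by TMM (trimmed mean of M values), and a gene was called where limma's test gave an adjusted p under 0.05. Log2 changes were fitted on log2(CPM + 0.5), are followed by ± the standard error, and understate the change of low genes. Of the 10 genes, 9 passed the filter of at least 1 CPM in 2 libraries and were tested. Krt8 did not pass, and Krt18 passed only through the double-mutant hypoxia libraries. In these bulk samples, fewer expressing cells and less RNA per cell cannot be told apart.

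Averaged over the 3 mutants, Krt19 and Krt7 were higher in hypoxia than in normoxia and 5 of the 6 transcription factors were lower. Krt19 rose most, by 3.54 ± 0.13 (adjusted p = 3.5e-14), with Krt7 up by 1.44 ± 0.16. Krt18 had a fitted value of 0.70 ± 0.14. Snai2 fell by 0.77 ± 0.05 (2.5e-10), Zeb1 fell by 0.59 ± 0.06, Twist2 fell by 0.48 ± 0.06, Zeb2 fell by 0.45 ± 0.07 and Twist1 fell by 0.37 ± 0.05. Snai1 alone among the factors rose on this average, by 0.18 ± 0.05 (adjusted p = 0.0061), and its direction was not the same in every mutant. All 9 tested genes passed the threshold, 4 higher and 5 lower, or 8 with 3 higher when Krt18 is left out because of how it entered the test, where 67.5% of all 16157 tested genes were called, 30.6% higher and 37.0% lower. Per mutant, 7 of the 9 were called in GLAD (48.1% of all genes), 7 in TIN (53.9%) and 8 in the double mutant (56.1%), or 7 of 8 without Krt18. These shares were high in the whole table, so the sizes and directions of the changes say more than the counts.

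Krt19, a type I keratin that lacks the usual tail domain (ENSMUSG00000020911, GRCm38 chromosome 11, 100140810 to 100148665, minus strand), was the keratin with the highest level. In GLAD it had 31.1 and 35 CPM in hypoxia, against 2.50 and 2.31 CPM in normoxia. In TIN it had 58.3 and 61.4 CPM in hypoxia, against 8.69 and 7.40 CPM in normoxia. The double mutant had 13.8 and 14.7 CPM in hypoxia, against 0.489 and 0.10 CPM in normoxia. All 6 hypoxia libraries lay above all 8 normoxia libraries, WT included at 1.97 and 3.44 CPM. Among group means, TIN hypoxia stood first, then GLAD hypoxia, double-mutant hypoxia and TIN normoxia, none of which overlapped. WT and GLAD normoxia overlapped below them, and the double mutant in normoxia was lowest.

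The log2 rise of Krt19 was 3.53 ± 0.22 in GLAD (adjusted p = 4.3e-10), 2.82 ± 0.22 in TIN (7.9e-09) and 4.26 ± 0.22 in the double mutant (2.1e-11). In inferred reads the double mutant had 350 reads in hypoxia against 7 in normoxia, a ratio of 49.7 (exact 95% counting interval 23.9 to 125). The same ratio was 13.5 in GLAD (10.6 to 17.4) and 7.34 in TIN (6.36 to 8.50). The rise was larger in the double mutant than in TIN by 1.43 ± 0.31 (adjusted p = 0.0013). The difference between double mutant and GLAD was 0.73 ± 0.31 (0.13), and 1.66 ± 0.48 (0.028) with a pseudocount of 0.1 CPM in place of 0.5. Thus the mutant with the lowest starting level had the largest ratio, and its hypoxia level was still the lowest of the 3. Scaled by exon length, Krt19 had 32.3 CPM per kb in TIN hypoxia, close to Snai1 at 38.1 CPM per kb in the same libraries.

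**Figure D1:**
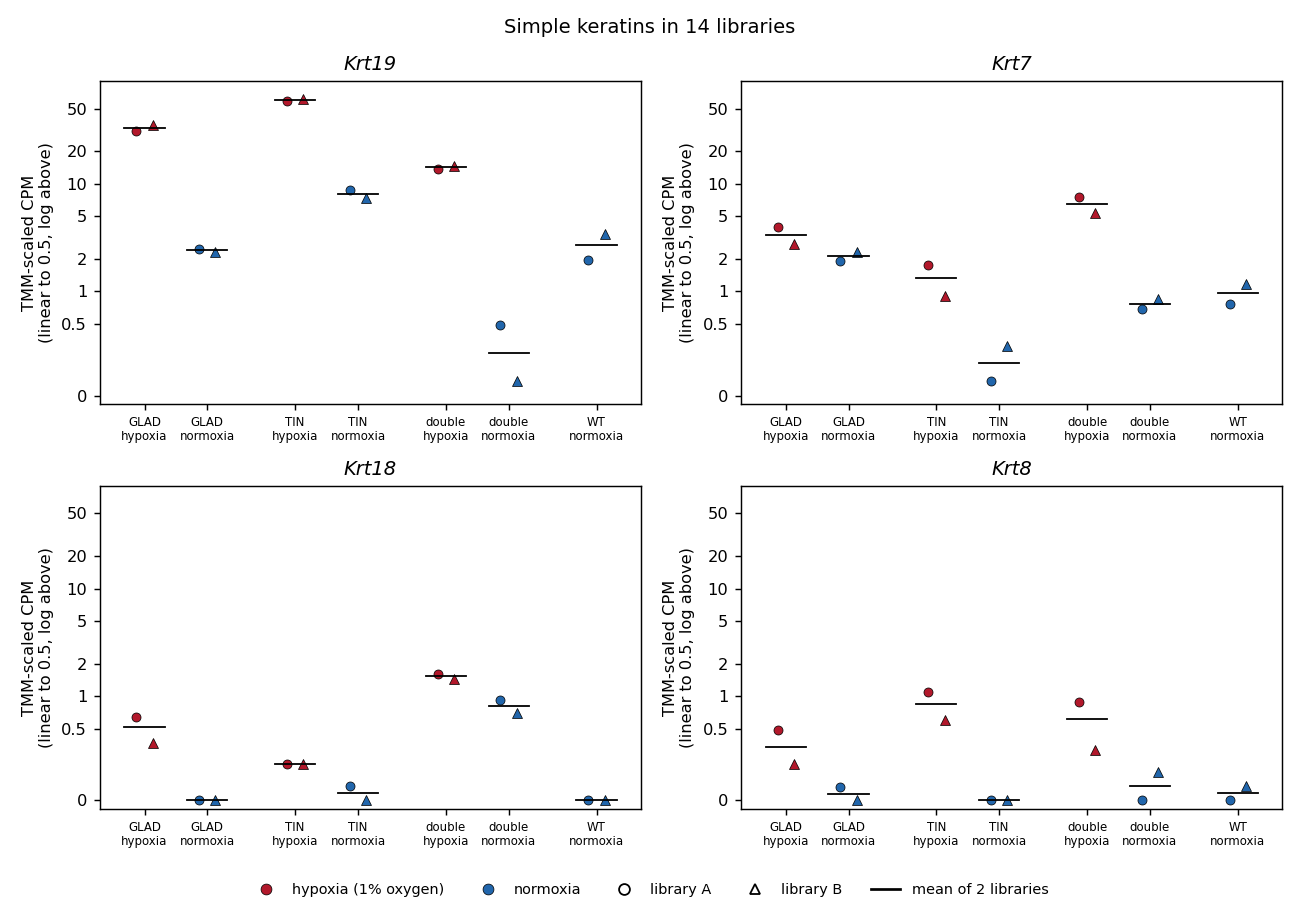
TMM-scaled CPM of Krt19, Krt7, Krt18 and Krt8 in each of 14 libraries (circles library A, triangles library B, black bars the mean of 2), on an axis that is linear to 0.5 CPM and logarithmic above. The 6 hypoxia libraries of Krt19 sit between 13.8 and 61.4 CPM, above all 8 normoxia libraries, while Krt18 and Krt8 stay below 2 CPM throughout.

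Krt7, a type II keratin of simple and glandular epithelia (ENSMUSG00000023039, chromosome 15, 101411043 to 101430313, plus strand), was lower than Krt19 in hypoxia. It had 7.56 and 5.40 CPM in the double mutant in hypoxia, against 0.685 and 0.850 CPM in normoxia. TIN libraries had 1.76 and 0.907 CPM in hypoxia, against 0.10 and 0.348 CPM in normoxia. GLAD had 3.94 and 2.77 CPM in hypoxia, against 1.93 and 2.31 CPM in normoxia, and WT had 0.756 and 1.18 CPM. Hypoxia and normoxia libraries did not overlap within any mutant, but TIN hypoxia overlapped WT normoxia. Krt7 rose by 2.45 ± 0.27 in the double mutant (adjusted p = 4.4e-07) and by 1.32 ± 0.27 in TIN (4.6e-04). GLAD gave 0.55 ± 0.27 (0.11), which was not called, with 94 inferred reads in hypoxia against 64 in normoxia (ratio 1.58, 1.14 to 2.21). The same ratio was 6.79 in TIN (2.63 to 22.3) and 8.37 in the double mutant (5.19 to 14.3). TIN minus GLAD was 0.78 ± 0.38 (adjusted p = 0.12), and 1.57 ± 0.56 (0.04) with a pseudocount of 0.1 CPM. The rise was larger in the double mutant than in GLAD by 1.9 ± 0.38 (adjusted p = 0.0024). Against TIN it was larger by 1.13 ± 0.38 (0.024), a call lost without TIN normoxia library B, TIN hypoxia library B, or library A of the double mutant in hypoxia or in normoxia (adjusted p = 0.074 to 0.14). It was also lost with no filter on low values (0.10) and with a pseudocount of 0.1 CPM, which gave 0.72 ± 0.56 (0.32).

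Krt18 and Krt8 form the usual filament pair of simple epithelia, and their genes stand head to head on chromosome 15, with starts 23.7 kb apart. Krt18 (ENSMUSG00000023043, 102028180 to 102032027, plus strand) had 1.61 and 1.46 CPM in the double mutant in hypoxia, against 0.929 and 0.700 CPM in normoxia. In GLAD it had 0.640 and 0.403 CPM in hypoxia and was at 0 in both normoxia libraries, as it was in both WT libraries. TIN had 0.251 and 0.252 CPM in hypoxia, against 0.10 and 0 CPM in normoxia. Every hypoxia library of a mutant was above its normoxia libraries, though most of these values were only a few reads. Krt18 was called in GLAD (adjusted p = 0.0016), with 14 inferred reads against 0. With the 0 set to the floor of 3 reads over the group the ratio is 5.02, which leaves out counting error in the 14 reads. Krt18 was not called in TIN (0.46 ± 0.23, adjusted p = 0.11), with 6 inferred reads against 1 (ratio 6.17, 0.75 to 284). With a pseudocount of 0.1 CPM the TIN value was 1.31 ± 0.51 (0.037). In the double mutant the fit gave 0.63 ± 0.23 (adjusted p = 0.028), but those hypoxia libraries are the ones that let Krt18 into the test, so this value is a description. It passed the threshold neither without either hypoxia library or normoxia library B (adjusted p = 0.057 to 0.17) nor with a pseudocount of 0.1 CPM (0.85 ± 0.51, 0.17). The double-mutant libraries carried Krt18 in normoxia too, higher than TIN by 1.26 ± 0.23 (2.3e-04).

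Krt8 (ENSMUSG00000049382, 101996698 to 102004482, minus strand) had 1.10 and 0.606 CPM in TIN in hypoxia, against 0 in both normoxia libraries. The double mutant had 0.880 and 0.353 CPM in hypoxia, against 0 and 0.20 CPM in normoxia. GLAD had 0.493 and 0.252 CPM in hypoxia, against 0.0963 and 0 CPM in normoxia, and WT had 0 and 0.103 CPM. All 6 hypoxia libraries lay above all 8 normoxia libraries. In inferred reads TIN had 21 in hypoxia against 0. With the 0 set to the floor of 3 reads the ratio is 7.2, which leaves out counting error in the 21 reads. The double mutant had 15 against 2 (ratio 7.46, 1.73 to 67.2) and GLAD 10 against 1 (ratio 10.8, 1.53 to 467). A fit without the filter on low values, over 32273 genes, gave 0.98 ± 0.15 averaged over the mutants (adjusted p = 4.3e-04). The processed pseudogene Krt8-ps was above 0 in 1 library, at 0.1 CPM.

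Markers of other cell types were read beside the keratins. The 12 epithelial markers summed to 11.7 to 12.3 CPM in hypoxia against 12.1 to 12.4 CPM in normoxia in GLAD. The sums were 11.9 to 13.0 against 7.7 to 9.05 CPM in TIN and 10.5 to 11.0 against 8.0 to 8.6 CPM in the double mutant. Of these markers 3 passed the filter, with a median of -0.03 on the average hypoxia effect. Esrp2, a splicing regulator of epithelial cells, rose by 0.32 ± 0.09 (adjusted p = 0.0058). Cdh3 (P-cadherin) gave -0.37 ± 0.17 (0.061) and fell in GLAD (-0.99 ± 0.29, 0.0091), and Dsp (desmoplakin) gave -0.03 ± 0.11 (0.83) and fell in TIN (-0.59 ± 0.20, 0.015). Mesothelial cells also carry these keratins. Of 7 mesothelial markers only Msln (mesothelin) passed the filter, with 27.9 to 60.4 CPM, and it rose in GLAD and TIN by 0.67 and 0.87 and fell by 0.37 in the double mutant. The mesothelial sums were 48.3 to 50.2 CPM in hypoxia against 30.0 to 32.4 CPM in normoxia in GLAD, 53.2 to 55.3 against 27.9 to 31.2 CPM in TIN and 39.9 to 45.5 against 52.0 to 60.9 CPM in the double mutant. Wt1, a defining mesothelial factor, was at 0 to 0.2 CPM and Upk3b at 0 to 0.9 CPM. The myeloid sum was 55.6 to 68.8 CPM in hypoxia against 24.0 to 36.7 CPM in normoxia over the mutants, where Cd68 rose by 1.89 ± 0.08 and Csf1r by 0.35 ± 0.07, while Ptprc, the pan-leukocyte marker, was at 0 to 0.1 CPM. The endothelial sum was 5.0 to 6.05 CPM in hypoxia against 1.5 to 2.15 CPM in normoxia in the double mutant, where Tek rose by 1.2 ± 0.20 (4.5e-05) and Cdh5 averaged 0.948 against 0.0489 CPM. It was 14.6 against 13.9 to 14.9 CPM in GLAD and 3.3 to 3.7 against 2.85 to 3.2 CPM in TIN. The part of these markers in the keratin changes was not tested.

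Snai1 and Snai2 encode the SNAIL and SLUG zinc-finger repressors. Snai1 (ENSMUSG00000042821, chromosome 2, 167538195 to 167542814, plus strand) had 44.6 and 50.4 CPM in the double mutant in hypoxia, against 29.6 and 28.4 CPM in normoxia. GLAD had 43.7 and 47.7 CPM in hypoxia, against 42.3 and 45.6 CPM in normoxia. TIN had 61.7 and 62.0 CPM in hypoxia, against 72.4 and 71.8 CPM in normoxia. The double mutant was thus higher in hypoxia, GLAD overlapped and TIN was lower. Snai1 rose by 0.70 ± 0.09 in the double mutant (adjusted p = 3.5e-06), gave 0.06 ± 0.09 in GLAD (0.64) and fell by 0.22 ± 0.09 in TIN (0.049). The TIN call rests at the threshold and was lost without any 1 of the GLAD or TIN libraries or either normoxia library of the double mutant (adjusted p = 0.056 to 0.16), with median-of-ratios factors (0.084) and with no filter on low values (0.064). The response was larger in the double mutant than in TIN by 0.92 ± 0.13 (2.6e-05) and than in GLAD by 0.64 ± 0.13 (0.0024). WT had 18.3 and 20.2 CPM, the lowest of all groups.

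Snai2 (ENSMUSG00000022676, chromosome 16, 14705852 to 14709385, plus strand) was lower in hypoxia in every mutant, with no overlap. It had 33.8 and 30.5 CPM in the double mutant in hypoxia, against 63.5 and 74.8 CPM in normoxia. GLAD had 57.2 and 56.3 CPM in hypoxia, against 91.4 and 95.3 CPM in normoxia. TIN had 38.8 and 38.7 CPM in hypoxia, against 55.8 and 54.8 CPM in normoxia, and WT had 76.0 and 70.2 CPM. Highest of all groups was GLAD normoxia, followed by WT and the double mutant in normoxia, which overlapped. Snai2 fell by 1.09 ± 0.09 in the double mutant (8.6e-09), by 0.71 ± 0.09 in GLAD (3.3e-06) and by 0.51 ± 0.09 in TIN (1.0e-04). The difference of double mutant minus TIN was -0.58 ± 0.13 (adjusted p = 0.0012). That of double mutant minus GLAD was -0.38 ± 0.13 (0.051), just short of the threshold, and 0.015 without the WT libraries.

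TWIST proteins are basic helix-loop-helix factors of mesenchyme. Twist1 (ENSMUSG00000035799, chromosome 12, 33957671 to 33959829, plus strand) had 44.4 and 45.3 CPM in GLAD in hypoxia, against 58.6 and 61.9 CPM in normoxia. The double mutant had 30.2 and 28.1 CPM in hypoxia, against 46.3 and 44.7 CPM in normoxia. TIN overlapped, with 37.8 and 31.9 CPM in hypoxia and 35.1 and 36.6 CPM in normoxia. Twist1 fell by 0.42 ± 0.09 in GLAD (8.9e-04) and by 0.63 ± 0.09 in the double mutant (1.0e-05), while TIN gave -0.04 ± 0.09 (0.70). The double-mutant change was lower than that of TIN by 0.59 ± 0.13 (double minus TIN -0.59, adjusted p = 0.0013). The TIN change lay above that of GLAD by 0.38 ± 0.13 (0.031), a call lost without any GLAD library, either TIN normoxia library or TIN hypoxia library A (adjusted p = 0.050 to 0.19). At 87.8 and 91.0 CPM, the WT libraries were the highest.

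Twist2 (ENSMUSG00000007805, chromosome 1, 91801461 to 91848028, plus strand) fell in hypoxia in all 3 mutants. It had 59.5 and 65.1 CPM in TIN in hypoxia, against 96.1 and 90.9 CPM in normoxia. GLAD had 23.7 and 25.3 CPM in hypoxia, against 31.8 and 35 CPM in normoxia, and the double mutant 31.5 and 28.1 CPM against 36.7 and 43.2 CPM. WT had 16.7 and 20.6 CPM, so TIN stood highest and WT lowest. The log2 changes were -0.58 ± 0.11 in TIN (2.5e-04), -0.44 ± 0.11 in GLAD (0.0034) and -0.41 ± 0.11 in the double mutant (0.0040), the last not called without normoxia library B (adjusted p = 0.079). No pair of mutants differed by the test, with differences from -0.14 ± 0.16 to 0.17 ± 0.16. The antisense gene Gm29100 covers 46.5% of the Twist2 exon length. It had 8.3 to 48.7 CPM, highest in TIN normoxia and lowest in WT as Twist2 was, and without the strand setting of the counts the reads of the overlapping genes cannot be told apart.

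ZEB proteins are zinc-finger homeodomain repressors of epithelial genes. Zeb1 (ENSMUSG00000024238, chromosome 18) was lower in hypoxia in every mutant, with no overlap. GLAD had 65.7 and 62.5 CPM in hypoxia, against 89.1 and 97.7 CPM in normoxia. TIN had 40.8 and 47.3 CPM in hypoxia, against 65.6 and 65.0 CPM in normoxia, and the double mutant 61.1 and 70.4 CPM against 98.7 and 108 CPM. WT, at 103 and 87.6 CPM, overlapped GLAD and the double mutant in normoxia. The log2 changes were close to one another, at -0.54 ± 0.10 in GLAD (2.2e-04), -0.57 ± 0.10 in TIN (1.0e-04) and -0.65 ± 0.10 in the double mutant (2.0e-05). Differences between mutants ran from -0.11 ± 0.14 to -0.03 ± 0.14, with 95% intervals within -0.41 to 0.27, and none was called.

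Zeb2 (ENSMUSG00000026872, chromosome 2, 44983632 to 45117395, minus strand) did not follow Zeb1. TIN had 40.4 and 40.8 CPM in hypoxia, against 78.1 and 83.8 CPM in normoxia. GLAD had 42.9 and 41.7 CPM in hypoxia, against 51.0 and 53.2 CPM in normoxia, and the double mutant overlapped at 63.7 and 60.5 CPM against 62.8 and 66.7 CPM. Zeb2 fell by 0.98 ± 0.11 in TIN (1.2e-06) and gave -0.06 ± 0.11 in the double mutant (0.68). In GLAD it fell by 0.30 ± 0.11 (0.041), a call lost without any 1 of the GLAD or TIN libraries or either normoxia library of the double mutant (adjusted p = 0.052 to 0.17), with median-of-ratios factors (0.059) and with no filter on low values (0.12). The TIN change lay below that of GLAD by 0.69 (TIN minus GLAD -0.69 ± 0.16, adjusted p = 0.0036), and double minus TIN was 0.92 ± 0.16 (2.2e-04). With 27.0 and 19.0 CPM, WT was the lowest group.

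**Figure D2:**
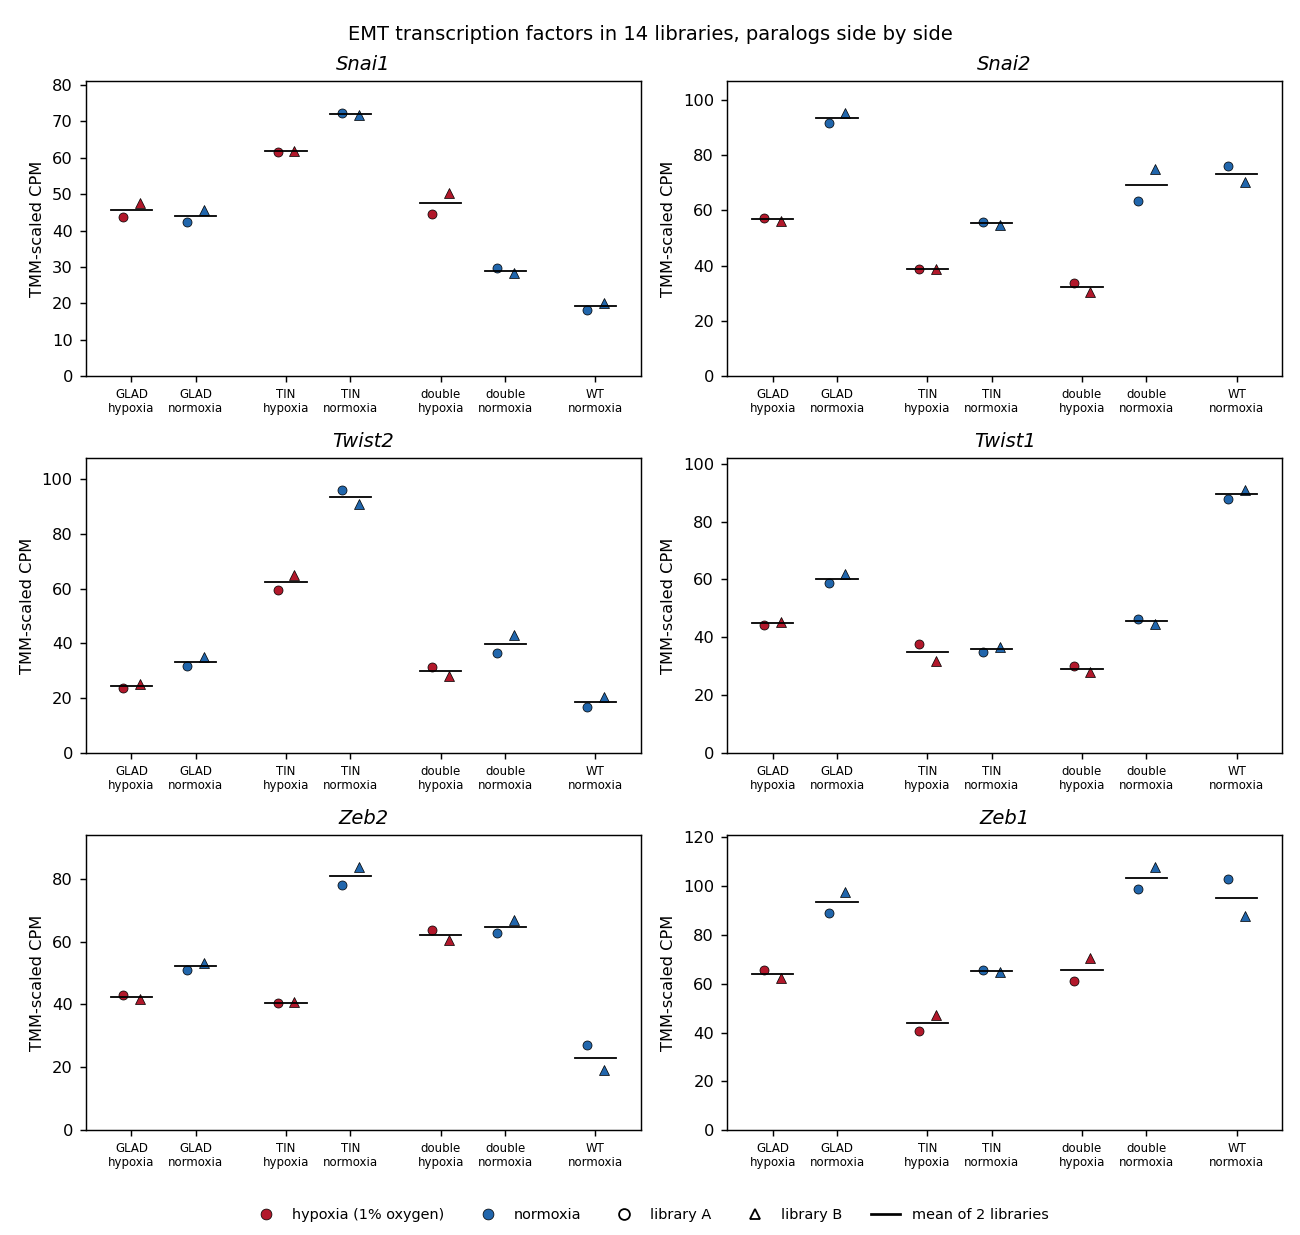
TMM-scaled CPM of the 6 EMT transcription factors in each of 14 libraries, with paralogs side by side (circles library A, triangles library B, black bars the mean of 2; the axis of each panel starts at 0). Snai1, Twist2 and Zeb2, on the left, were lowest in the WT libraries and highest in TIN normoxia, while Twist1, at the right of the middle row, was highest in WT at 87.8 and 91.0 CPM.

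Over the 9 tested genes, the hypoxia effect differed by the test of the difference for 2 genes between TIN and GLAD (33.9% of all genes), for 2 between the double mutant and GLAD (14.6%) and for 6 between the double mutant and TIN (42.8%). Snai2 and Zeb1, together with Krt19 and Twist2, were called in the same direction in all 3 mutants. Snai1, Twist1 and Zeb2 were called in some mutants and not in others, and each of them had at least 1 difference between mutants that was itself called. These 3 comparisons share libraries and are not independent of one another. The counts against GLAD were the least stable, at 1 to 4 for TIN and 2 to 4 for the double mutant when 1 library was left out, with 4 in both without either WT library.

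**Figure D3:**
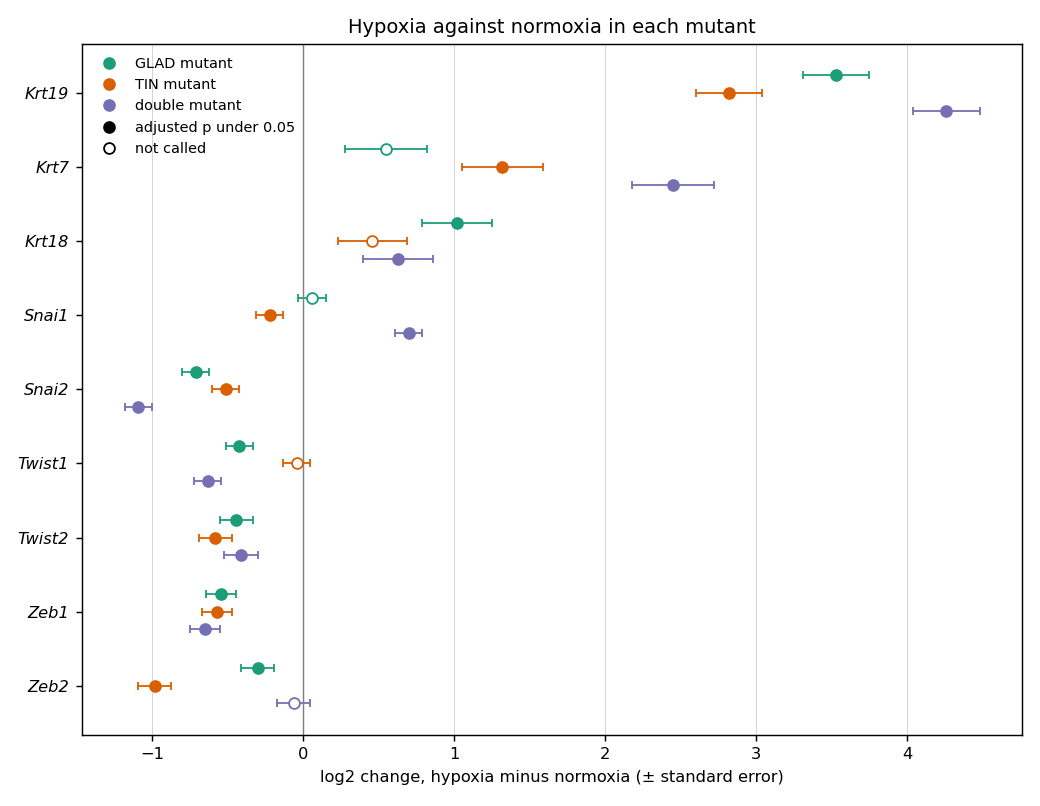
Fitted log2 change, hypoxia minus normoxia, of the 9 tested genes in the GLAD, TIN and double mutants, with bars of 1 standard error and filled points for an adjusted p under 0.05. Krt19 stands far to the right, between 2.82 and 4.26, while Snai2, Twist2 and Zeb1 lie left of 0 in all 3 mutants and Snai1 lies on both sides of 0.

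Against WT in normoxia, Snai1, Twist2 and Zeb2 were higher in every mutant and Twist1 was lower in every mutant, while Snai2 and Zeb1 varied between mutants. These 3 comparisons share the WT libraries, so their values are given side by side. Snai1 was higher than in WT by 1.17 in GLAD, 1.88 in TIN and 0.58 in the double mutant (standard error 0.09 each). Twist2 was higher by 0.83, 2.30 and 1.08 (0.11 each) and Zeb2 by 1.18, 1.81 and 1.49 (0.11 each), in the same order of mutants, all called. Twist1 was lower than in WT in each mutant, at -0.57, -1.31 and -0.97 (0.09 each), all called. Snai2 was higher in GLAD (0.35 ± 0.09), lower in TIN (-0.40 ± 0.09) and not called in the double mutant (-0.08 ± 0.09). Zeb1 was lower in TIN (-0.54 ± 0.10) and not called in GLAD (-0.03 ± 0.10) or the double mutant (0.12 ± 0.10).

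Among the keratins, Krt19 was higher than WT in TIN by 1.45 ± 0.22 (1.6e-05), lower in the double mutant at -2.02 ± 0.22 (4.3e-07) and not called in GLAD (-0.10 ± 0.22). Krt7 was higher in GLAD by 0.84 ± 0.27 (adjusted p = 0.013), a call lost without GLAD library B or WT library A (0.088 for each) and with no filter on low values (0.066). In TIN it was lower, at -1.03 ± 0.27 (0.0031), a call lost without TIN library A (0.053). Krt18 was called higher in the double mutant, at 0.929 and 0.700 CPM against 0 in both WT libraries. In all, 6 of 9 genes were called in GLAD (55.2% of all genes), 8 in TIN (60.2%) and 6 in the double mutant (56.9%).

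The split between paralogs was read as a ratio within each library, a choice made after the values were seen and given as a description. CPM are not scaled by length, so the ratios compare libraries and not paralogs: in TIN normoxia Zeb2 had 4.06 CPM per kb of exon and Zeb1 6.36. The log2 ratio of Snai1 over Snai2 was 0.37 and 0.39 in TIN normoxia, against -2.03 and -1.77 in WT. Twist2 over Twist1 had a log2 ratio of 1.44 and 1.30 in TIN normoxia, against -2.36 and -2.12 in WT. Reads of the overlapping antisense gene Gm29100 may be part of this ratio, as they cannot be told apart from those of Twist2. For Zeb2 over Zeb1 the log2 ratio was 0.25 and 0.36 in TIN normoxia, against -1.92 and -2.17 in WT. In all 3 pairs the WT libraries were lowest, the GLAD and double-mutant normoxia libraries lay between, and the TIN normoxia libraries were above 0. In hypoxia the Snai1 ratio was above 0 in TIN, at 0.66 and 0.67, and also in the double mutant. The double mutant had 0.40 and 0.72, against -1.09 and -1.38 in its normoxia libraries.

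**Figure D4:**
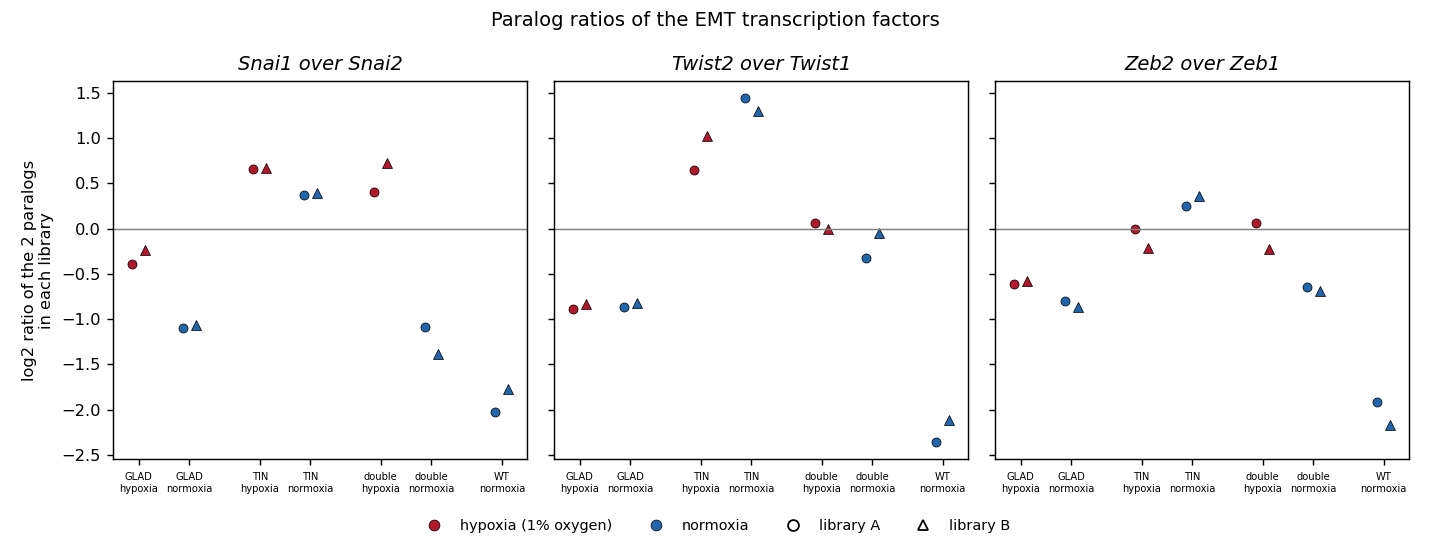
Log2 ratio of Snai1 over Snai2, Twist2 over Twist1 and Zeb2 over Zeb1 within each of 14 libraries (circles library A, triangles library B), with 0 marking equal CPM, which is not scaled by transcript length. WT libraries lie lowest in all 3 panels, between -2.36 and -1.77, and TIN normoxia libraries lie above 0, between 0.25 and 1.44.

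The mutants were also compared with one another. TIN over GLAD in normoxia called 8 of 9 genes (51.8% of all genes), with Krt19 higher by 1.55 ± 0.22, Twist2 by 1.47 ± 0.11, Snai1 by 0.71 ± 0.09 and Zeb2 by 0.63 ± 0.11. Krt7 was lower there at -1.87 ± 0.27, as were Snai2 (-0.75 ± 0.09), Twist1 (-0.74 ± 0.09) and Zeb1 (-0.51 ± 0.10). The paralogs of every factor pair thus differed in opposite directions. In hypoxia TIN over GLAD called 7 of 9 (63.1%), and Zeb2, at -0.06 ± 0.11, was not called. Twist1, at -0.36 ± 0.09, lost its call without TIN library B (adjusted p = 0.061). The double mutant over TIN called 9 of 9 in normoxia (48.7%) and 9 of 9 in hypoxia (64.0%), or 8 of 8 there without Krt18. Several of these calls depended on 1 library. In normoxia those of Krt7, Snai2 and Zeb2 were lost without 1 of the compared libraries (adjusted p = 0.057 to 0.17). In hypoxia those of Snai2 and Twist1 were lost in the same way (adjusted p = 0.058 to 0.33). The largest differences were Krt19, at -3.47 ± 0.22 in normoxia and -2.03 ± 0.22 in hypoxia, and Krt7 in hypoxia, at 1.95 ± 0.27. Krt19 and Krt7 thus lay in opposite order in these mutants, with Krt19 lower and Krt7 higher in the double mutant than in TIN at both oxygen levels.

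The double mutant over GLAD called 7 of 9 in normoxia (35.7%) and 6 of 9 in hypoxia (42.6%), or 5 of 8 there without Krt18. Krt19 was lower, at -1.91 ± 0.22 in normoxia and -1.18 ± 0.22 in hypoxia. Krt18 was called higher in normoxia (adjusted p = 1.5e-04), where GLAD was at 0, and its hypoxia value, 1.00 ± 0.23, is a description, since the double-mutant hypoxia libraries let it into the test. Krt7 changed sides, at -1.04 ± 0.27 in normoxia (0.0054) and 0.86 ± 0.27 in hypoxia (0.016). The hypoxia call was lost without GLAD library B or double-mutant library A (0.16 each), with a pseudocount of 0.1 CPM (0.069) and with no filter on low values (0.076), and the normoxia call without GLAD library B (0.053). Zeb2 was higher in the double mutant by 0.55 ± 0.11 in hypoxia (8.9e-04), and by 0.31 ± 0.11 in normoxia (0.042), where the call was lost without most single libraries (adjusted p = 0.050 to 0.21).

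Other genes of the same systems were read from lists chosen with earlier results of these data known, in the average hypoxia effect over the 3 mutants, where the median of all tested genes was -0.04. Of 50 other keratins, 38 were above 0 somewhere and 6 were tested, and these 6 rose on this average, with a median of 1.13. Over all tested genes 30.6% were called higher and 37.0% lower, and the counts of the lists below are also read against these shares. Per mutant, 5 of the 6 were called higher in GLAD (median 0.9) and 5 in the double mutant (2.41). In TIN 2 were called higher and 1 lower (median 0.26). The 6 are named after their values were seen, apart from Krt10. Krt16, a keratin of stressed epidermis, rose by 2.47 ± 0.13 (1.2e-11), and Krt80 rose by 1.11 ± 0.10. Krt13 rose by 1.19 ± 0.14 and Krt17 by 1.16 ± 0.14, and Krt10, a keratin of the upper epidermis, rose by 0.34 ± 0.08. Krt15 rose on average by 0.52 ± 0.11, but it was lower in TIN at -0.61 and higher in the double mutant by 2.34. Their levels stayed low, and the 50 genes summed to 29.0 to 43.8 CPM in hypoxia against 13.3 to 21.1 CPM in normoxia over the mutants. A gene that passed the filter only through hypoxia libraries had to differ, so these counts carry no more than their values.

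Of 16 genes for other intermediate filaments and the plakins that anchor them, 9 rose and 3 fell, with a median of 0.15. Evpl (envoplakin) rose by 2.76 ± 0.11 and was at 66.6 CPM in the double mutant in hypoxia against 1.83 CPM in normoxia. Pkp2 (plakophilin, a desmosomal plaque protein) rose by 2.30 ± 0.11 and Synm (synemin) by 0.79 ± 0.08, while Lmna (lamin A/C) fell by 0.69 ± 0.05. Vim was not called (0.03 ± 0.05, adjusted p = 0.57). Of 18 junction and cadherin genes 11 were tested, 6 rose and 3 fell, with a median of 0.12. By mutant, 4 were called higher and 2 lower in GLAD, and 1 higher and 5 lower in TIN. In the double mutant 6 were called higher and 1 lower. Cdh2 (N-cadherin) rose by 0.55 ± 0.07 on average but ran in both directions, at 1.02 in GLAD, -0.65 in TIN and 1.27 in the double mutant, each called. The tight-junction genes F11r and Tjp1 rose by 0.40 and 0.31.

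Of 23 other EMT and epithelial transcription factors 17 were tested, 4 rose and 10 fell, with a median of -0.33. Prrx2, a homeobox gene of mesenchyme, fell by 1.35 ± 0.06, Klf8 fell by 1.02 ± 0.11, Tcf4 fell by 0.98 ± 0.05 and Id3, an inhibitor of helix-loop-helix factors, fell by 0.94 ± 0.04. Among 23 co-repressors and stability regulators of SNAIL and ZEB, 9 rose and 7 fell, with a median of 0.04. The mutants differed, with 9 called higher and 1 lower in GLAD and 3 higher and 7 lower in TIN. In the double mutant 11 were called higher and 4 lower. On the average effect Loxl2, a lysyl oxidase known to stabilise SNAIL, rose by 3.98 ± 0.06 (8.4e-20), followed by Ezh2 at 0.63, Rcor1 at 0.57 and Suz12 at 0.52. Loxl2 had 222 CPM in GLAD in hypoxia against 14.6 CPM in normoxia, 159 against 7.17 CPM in TIN and 328 against 25 CPM in the double mutant.

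Of 20 EMT target genes 19 were tested, 8 rose and 6 fell, with a median of 0.03. By mutant, 9 were called higher and 4 lower in GLAD (median 0.16), and 9 higher and 2 lower in TIN (0.24). In the double mutant 6 were called higher and 10 lower (-0.26). On the average effect Lox, which cross-links collagen, rose by 1.30 ± 0.07 and Tnc (tenascin C) by 1.23 ± 0.05, and Mmp14 fell by 0.87 ± 0.04. The fibroblast markers had 10 tested genes, of which 1 rose and 7 fell, with a median of -0.37. Fn1 (fibronectin) rose by 0.62, and Pdgfrb fell by 1.2, Lum (lumican) fell by 1.04 and Pdgfra fell by 0.79. The fibroblast sums were 11000 to 12200 CPM in hypoxia against 10000 to 10300 CPM in normoxia in GLAD. They were 7660 to 7710 against 7470 to 7520 CPM in TIN and 9500 to 9720 against 9960 to 10900 CPM in the double mutant. The list median was -0.19 in GLAD, -0.12 in TIN and -0.87 in the double mutant.

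**Figure D5:**
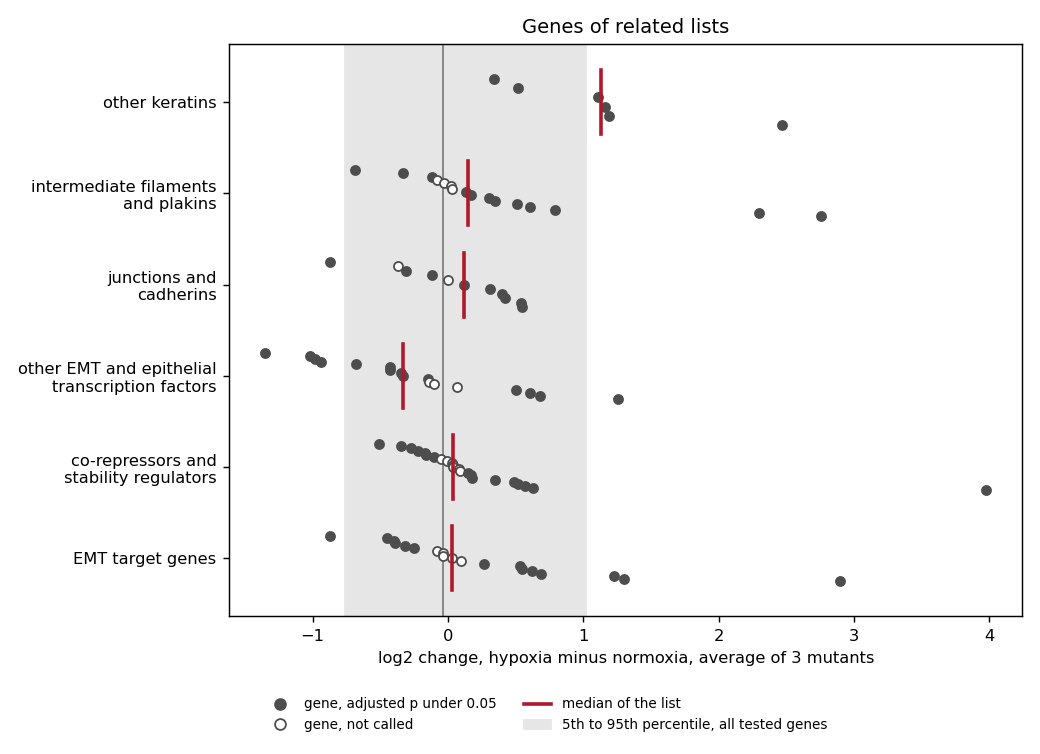
Log2 change, hypoxia minus normoxia averaged over 3 mutants, of each tested gene in 6 related lists (filled points adjusted p under 0.05, red bars the list median), with the 5th to 95th percentile of all tested genes shaded from -0.76 to 1.02. The other keratins lie right of the line at the all-gene median of -0.04, with a list median of 1.13, and Loxl2 stands alone at 3.98.

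Genes with the most similar pattern were found by Pearson correlation over the 7 group means, which share their libraries, among tested genes with a mean of at least 5 CPM. They are the highest of 11957 or 11958 candidates over only 7 values. High r is therefore built into the choice, and the names are a description. For Krt19 they were Gm1976 (r = 0.979), Ccno (0.978) and Gm26819 (0.975), and for Krt7 Espn (0.976), Hyal3 (0.974) and Cda (0.971). For Krt18, Slc23a2 (0.977) and Adarb1 (0.975) were among the nearest. For Snai1 the closest were Reps1, Ptpn3 and Gata4 (0.977 to 0.987), and for Snai2 Katnal2, Fkbp14 and Aida (0.982 to 0.989). Twist1 was nearest to Acads, Gm16907 and Stard10 (0.985 to 0.990), and Twist2 to D1Ertd622e, its antisense neighbour Gm29100 and Tnfrsf21 (0.986 to 0.993). Zeb1 was nearest to Nek9, Snx10 and Colec12 (0.988 to 0.993), and Zeb2 to Anks1, Zfp719 and Sema3e (0.978 to 0.987).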

How the data were processed

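The deposited values are CPM for 52636 Ensembl mouse genes, 52403 of them matched to a symbol. Per the submitters' processing notes, STAR and HTSeq were used with the builds GRCm38.p4 and mm10; their versions, parameters and the strand setting are not given in the sources used here. Of the values under 200 CPM, 99.87% to 100% in each library fitted whole reads worth 1.331 to 1.678 steps of 0.04997 to 0.04998 CPM each, rounded up to a whole step, against 59.6% to 75.7% by chance. The authors' CPM therefore run slightly high at low levels. Inferred reads served for depth, limits and read ratios only.

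CPM were scaled by TMM factors (0.965 to 1.038; trimming 30% by log ratio and 5% by mean level) and fitted as log2(CPM + 0.5) with limma 3.58.1 in R 4.3.3, with 7 group means over 14 libraries and variances moderated along mean level (7 residual and 10.9 prior degrees of freedom). Genes with at least 1 CPM in 2 libraries were kept (16157 of 32273 above 0). P-values were adjusted by Benjamini-Hochberg within each of 16 comparisons. A run on simulated data, with far fewer changed genes than here, checked the code of the fit and not the calls. A count test had been planned, and limma was used because the unit is CPM.

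Coordinates are from GENCODE M21 (GRCm38) and promoters from RefSeq (GRCm38.p6). The 10 genes and the lists were chosen with earlier results of these data known. Named from each list were up to 4 called genes with the largest average hypoxia change and a mean of at least 5 CPM, plus Cdh1, Cdh2, Epcam and Vim; list markers given as a check of cell type, and other keratins, were named after their values were seen. A few genes that the rule names are not reported here. Libraries A and B of every group differed by more than sampling noise (chi-square per gene 1.47 to 20.42). Alternatives changed the scaling, pseudocount, filter, libraries in the fit and letter block.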

Additional observations from a re-analysis of the deposited data

Results flagged for a closer look

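The hypoxia effect differed between mutants, by the test of the difference itself, in 10 results over 6 genes, each on the log2 scale. Over all tested genes, 33.9% were called for TIN minus GLAD, 14.6% for double minus GLAD and 42.8% for double minus TIN. For Krt7 the effect of the double mutant minus that of GLAD was 1.9, and minus that of TIN it was 1.13. Krt19 gave 1.43 for double minus TIN. Snai1 gave 0.64 for double minus GLAD and 0.92 for double minus TIN. Snai2 gave -0.58 for double minus TIN, a deeper fall in the double mutant. Twist1 gave 0.38 for TIN minus GLAD and -0.59 for double minus TIN, as TIN showed little change. Zeb2 gave -0.69 for TIN minus GLAD and 0.92 for double minus TIN, as TIN fell most. TIN libraries enter 8 of the 10, and the differences share libraries. As given above, the calls of Krt7 for double minus TIN and of Twist1 for TIN minus GLAD were lost without certain single libraries.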

How the results depend on the processing

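No called change of the 9 tested genes turned its direction in the alternatives run, and over single genes 3293 results stayed on the same side of the threshold, 82 lost a call and 38 gained one. The number of genes called was within 1.5 times the reported one in 14 of 16 comparisons. For TIN minus GLAD in the hypoxia effect, 2 genes were called, against 1 with no filter on low values, 4 with only the compared groups in the fit, 4 without the wild-type libraries and 1 to 4 with each library left out (1 without any GLAD library, either TIN normoxia library or TIN hypoxia library A, 4 without either WT library). The share of all genes called moved likewise, at 13.7%, 46.6% and 42.9% in the first 3 settings against 33.9%. For double minus GLAD, 2 were called, against 4 without the wild-type libraries and 2 to 4 with each library left out (4 without double-mutant normoxia library A or either WT library). Over all genes, 14.6% were called there, against 22.4% without the wild-type libraries and 9.05% without GLAD normoxia library B. The average hypoxia effect called 9 genes with each library left out and 8 to 10 in the other settings.

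Letters A and B did not pair the libraries (r of -0.10 to 0.16 over 21 pairs of groups, 3 of them above 0.1). With the letter as a replicate block, the double mutant over GLAD in hypoxia called 7 genes against 6, as Twist2 (0.28) had an adjusted p of 0.042 against 0.053, and the other 15 counts were the same. Recomputing CPM from the inferred reads, chosen after seeing the data, changed none of the 16 counts. The planned count tests were not run because the unit is CPM. With 2 libraries a group, a lone library is assumed to vary like the other groups, and Krt8 and Krt18 rest on few reads.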
